A study of Mus musculus with 6 samples.

Results

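The 9 genes described here encode the transporters that move calcium out of the cell across the plasma membrane, namely the sodium-calcium exchangers (NCX) Slc8a1, Slc8a2 and Slc8a3, the plasma membrane calcium ATPases (PMCA) Atp2b1, Atp2b2, Atp2b3 and Atp2b4, and the potassium-dependent sodium-calcium exchangers (NCKX) Slc24a2 and Slc24a3. They were taken by gene symbol from a table of 24972 genes, and the choice was made with earlier results of these data known. All 9 were present and all 9 passed the filter on low values, a normalized count of at least 10 in at least 3 libraries, together with 15800 genes in all. RNA came from dissected mouse cortex at postnatal day (P) 7, in 3 libraries labelled wildtype (Zmiz1f/f) and 3 labelled Zmiz1-KO (Zmiz1f/f;Emx1Cre). Mice of both groups thus carried the floxed Zmiz1 allele, and the Zmiz1-KO mice also carried Cre recombinase under the control of Emx1, a gene of the dorsal forebrain lineage that gives rise to cortical projection neurons and most cortical glia but not to interneurons, microglia or vessels. Values of a group are listed in the order of replicates 1, 2 and 3. Sex, litter and whether a library came from 1 animal are not given in the labels, so p values measure the spread between these libraries. A treatment note in the labels speaks of progenitor cells, whereas the extraction note speaks of cortex.

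Calcium that enters a neuron through voltage-gated channels and glutamate receptors is cleared by a small number of routes. PMCA pumps use ATP, bind calcium with high affinity and are activated by calmodulin, and they set the low resting level. NCX exchangers use the sodium gradient kept by the sodium pump, and they work at high capacity when calcium has risen after activity. NCKX exchangers use the potassium gradient as well and are prominent in neurons. The remaining calcium is taken up by the endoplasmic reticulum (ER) and by mitochondria or is bound by cytosolic proteins.

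None of the 9 genes differed between the groups at an adjusted p at or under 0.05 (limma on log2(normalized count + 1), Benjamini-Hochberg adjustment over 15800 genes), against 0.411% of all genes tested. The members held 4 unadjusted p values under 0.05, those of Slc8a1, Slc8a3, Atp2b2 and Slc24a3, where the share over all tested genes was 11.0%. The 3 values of one group lay outside those of the other in 3 of the 9 genes, against 16.3% of all genes. Among the 4775 genes with a mean at least as high as that of the lowest member, Slc8a3, the corresponding shares were 15.4% and 20.6%. The members were chosen with earlier results of these data known, so these shares are a description and not an independent comparison. The direction was mixed, with 5 members at lower and 4 at higher fitted values in the libraries labelled Zmiz1-KO and a median log2 fold change of -0.012, compared with -1.75e-04 over all tested genes. The median size of the change was 0.11 in the members, 0.075 over all genes and 0.046 over those 4775.

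Several facts of the libraries bear on these values. Zmiz1 itself, the deleted gene, stood at 8119, 7929 and 7461 normalized counts in wildtype but at 9944, 9779 and 9660 under the Zmiz1-KO label, higher where the label names its deletion (log2 fold change 0.32, limma adjusted p = 0.00125) and directions below are given by label. Whether the labels stand in the right order was not tested, and all directions would turn if they were exchanged. The table holds 1 value per gene and cannot separate transcripts with and without the floxed part. Xist, the RNA that coats the inactive X, reached 25307 normalized counts in replicate 3 of wildtype and 24403 in replicate 2 of Zmiz1-KO, with 12.9 to 57.3 elsewhere. Ddx3y, a gene of the Y chromosome, was at 0 and 1.89 in these 2 libraries and at 1250 to 1483 in the other 4. Normalized counts summed to 32661979 to 33239707 per library, and the step between low values put the counted reads at an estimated 15495006 to 17858811. On that estimate a member rested on 725 to 10812 reads in a library, which is a counting error of at most 3.71% for Slc8a3 and 1.08% for Atp2b1. Projection neuron markers summed to 36336 to 40517 normalized counts in wildtype and 36884 to 38509 under the Zmiz1-KO label. Their log2 fold changes ran from -0.17 to 0.15, and the groups did not overlap in the markers at either end. Of the 6 markers 5 had lower fitted values, the least of them at -5.46e-06, and none passed the threshold. Markers of progenitors and dividing cells summed to 3451 to 3848 and 3669 to 4280, in the same order of groups.

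The members of a family resemble each other in sequence, and reads that fit several of them would blur their separate values. In the transcripts of GENCODE vM21 on GRCm38, the build that corresponds to mm10, no stretch of 75 bases of any member also occurred in another member. Slc8a1 shared 1.18% of its 75-base stretches with another gene, an antisense transcript of the same locus, Atp2b1 shared 0.474% and Atp2b4 0.0485%, and the other 6 members shared none. Below are 75-base coding stretches, each inside a coding exon, in which the other genes of a family came closest to a reference gene. The reference was Slc8a1 for NCX, Atp2b1 for PMCA and Slc24a2 for NCKX. Stretches are shown 5′ to 3′ on the coding strand, with the positions at which the family differs in capitals. Near matches among the other genes, across exon junctions and in untranslated regions were not searched.

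NCX genes, with 15 of 75 positions differing:
Slc8a1 chr17:81408241-81408315, minus strand: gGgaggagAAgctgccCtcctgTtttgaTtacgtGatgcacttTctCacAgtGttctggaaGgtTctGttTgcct
Slc8a2 chr7:16157177-16157251, plus strand: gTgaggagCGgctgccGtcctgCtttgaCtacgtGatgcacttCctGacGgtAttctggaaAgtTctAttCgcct
Slc8a3 chr12:81202417-81202491, minus strand: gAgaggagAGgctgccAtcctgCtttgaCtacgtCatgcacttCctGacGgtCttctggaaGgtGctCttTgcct

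PMCA genes, with 20 of 75 positions differing:
Atp2b1 chr10:98986992-98987066, plus strand: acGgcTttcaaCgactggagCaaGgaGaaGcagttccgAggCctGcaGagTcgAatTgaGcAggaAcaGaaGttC
Atp2b2 chr6:113813866-113813940, minus strand: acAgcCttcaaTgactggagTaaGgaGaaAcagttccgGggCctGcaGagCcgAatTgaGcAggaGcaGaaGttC
Atp2b3 chrX:73529046-73529120, plus strand: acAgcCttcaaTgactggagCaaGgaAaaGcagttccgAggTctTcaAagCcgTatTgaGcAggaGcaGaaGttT
Atp2b4 chr1:133739242-133739316, minus strand: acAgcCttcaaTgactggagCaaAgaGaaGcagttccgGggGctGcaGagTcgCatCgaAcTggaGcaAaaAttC

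Even in these stretches the other exchangers differed from Slc8a1 at 12 and 13 positions and the other pumps from Atp2b1 at 8 to 13. In the closest stretch of the NCKX genes, Slc24a2 and Slc24a3 differed at 14 of 75 positions. The differences lie every few bases, so a read over any of these sites carries several of them.

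Slc8a1, on chromosome 17 from 81373105 to 81738377, encodes the exchanger that is also the main one of the heart. It had 10823, 10739 and 10623 normalized counts in wildtype against 9166, 10272 and 9510 under the Zmiz1-KO label. All 3 wildtype values lay above the other group, and Zmiz1-KO replicate 2 came closest to them. The means were 10729 ± 101 and 9649 ± 566 (SD, n = 3 per group), and the log2 fold change was -0.15 (standard error 0.042, 95% interval -0.24 to -0.065, limma adjusted p = 0.168). This was the smallest p of the members, at rank 188 of 15800 genes. Of the 6 refits with each library left out, the change passed the threshold in 1, without Zmiz1-KO replicate 2, at -0.20 (limma adjusted p = 0.0165). In that refit 151 of 15972 genes passed. Without Zmiz1-KO replicate 1 the change was -0.12 (limma adjusted p = 0.568).

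Slc8a2, on chromosome 7 from 16129826 to 16161063, encodes the exchanger found mostly in brain. Its normalized counts were 10867, 10087 and 10268 in wildtype against 10763, 10258 and 10324 under the Zmiz1-KO label. The groups overlapped throughout, and the log2 fold change of 0.0061 had a 95% interval of -0.078 to 0.090 (limma adjusted p = 0.977). Slc8a3, on chromosome 12 from 81197915 to 81333180, encodes the exchanger of brain and skeletal muscle. It had 1457, 1673 and 1614 normalized counts in wildtype against 1704, 1729 and 1798 under the Zmiz1-KO label, so that all 3 of the latter were higher, by a narrow margin over wildtype replicate 2. The log2 fold change was 0.14 (95% interval 0.020 to 0.27, limma adjusted p = 0.365). Without wildtype replicate 1, which had the lowest value, it was 0.085.

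**Figure D1:**
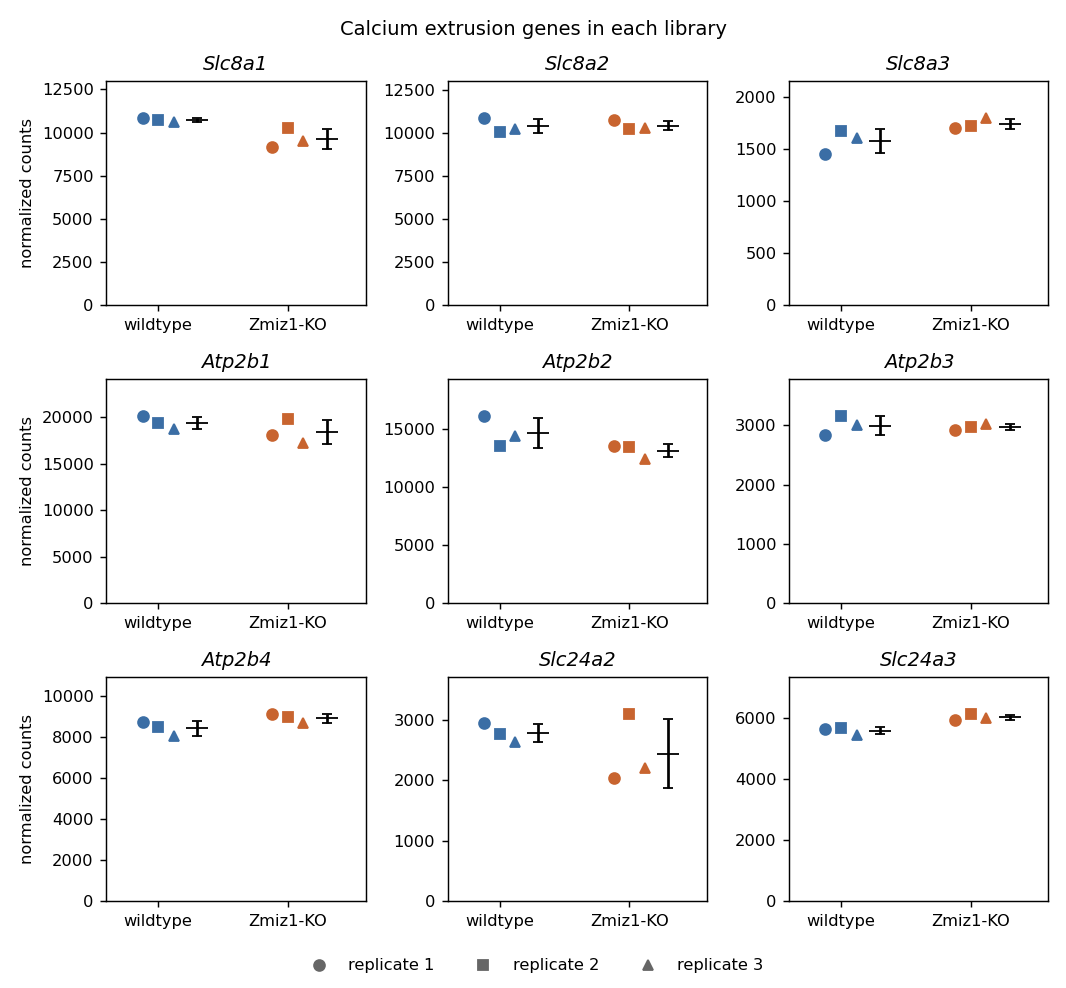
Normalized counts of each gene in the 3 wildtype libraries (blue) and the 3 libraries labelled Zmiz1-KO (orange), with the replicate shown by the symbol and the mean and SD in black; every axis starts at 0. The groups do not overlap in Slc8a1, Slc8a3 and Slc24a3, and Zmiz1-KO replicate 2 of Slc24a2, at 3090, lies far above replicates 1 and 3.

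Atp2b1, on chromosome 10 from 98914406 to 99026143, encodes the most widely expressed of the pumps. It had 20088, 19342 and 18723 normalized counts in wildtype against 18083, 19775 and 17248 under the Zmiz1-KO label. Replicate 2 of the latter lay inside the wildtype range and the other 2 below it, and the log2 fold change was -0.079 (95% interval -0.18 to 0.021, limma adjusted p = 0.578). It was -0.13 without Zmiz1-KO replicate 2 and -0.035 without replicate 3. Atp2b2, on chromosome 6 from 113743831 to 114042613, encodes the fast pump of cerebellar Purkinje cells and of the hair cells of the inner ear. It had 16093, 13508 and 14420 normalized counts in wildtype against 13542, 13466 and 12465 under the Zmiz1-KO label. The overlap came from wildtype replicate 2, which lay just below the highest of the other group. The log2 fold change was -0.15 (95% interval -0.29 to -0.019, limma adjusted p = 0.380), and -0.086 without wildtype replicate 1.

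Atp2b3, on the X chromosome from 73503086 to 73571005, encodes the other pump that is largely neuronal. Its normalized counts were 2832, 3152 and 3012 in wildtype against 2915, 2978 and 3019 under the Zmiz1-KO label, and the libraries high in Xist lay among the rest. The log2 fold change of -0.012 had a 95% interval of -0.11 to 0.089 (limma adjusted p = 0.957). Atp2b4, on chromosome 1 from 133699457 to 133801041, encodes a pump also known from red blood cells and vessels. It had 8778, 8522 and 8067 normalized counts in wildtype against 9127, 8991 and 8695 under the Zmiz1-KO label. Only wildtype replicate 1 overlapped the other group, and the log2 fold change was 0.081 (95% interval -0.0058 to 0.17, limma adjusted p = 0.497), and 0.047 without wildtype replicate 3. Summed levels of endothelial and mural markers overlapped between the groups, at 9797 to 11399 and 10334 to 10675 normalized counts, as did those of red blood cells at 8378 to 12198 and 8042 to 9117, and their part in the values of Atp2b4 was not tested.

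Slc24a3, on chromosome 2 from 145167754 to 145642166, encodes an NCKX exchanger of brain and smooth muscle. It had 5652, 5665 and 5445 normalized counts in wildtype against 5939, 6117 and 6002 under the Zmiz1-KO label, and all 3 of the latter lay above wildtype. The log2 fold change was 0.11 (95% interval 0.025 to 0.19, limma adjusted p = 0.300). Slc24a2, on chromosome 4 from 86983124 to 87230477, encodes the exchanger of retinal cones and of neurons, and it had the widest spread of the 9 genes. It had 2942, 2767 and 2633 normalized counts in wildtype against 2034, 3090 and 2200 under the Zmiz1-KO label. Zmiz1-KO replicates 1 and 3 lay below all wildtype libraries and replicate 2 above all of them, which gave a coefficient of variation of 23.2% in that group, against 5.57% in wildtype. The log2 fold change was -0.21 (95% interval -0.71 to 0.29, limma adjusted p = 0.773), and -0.39 without Zmiz1-KO replicate 2 (standard error 0.057, limma adjusted p = 0.00191). Without Zmiz1-KO replicate 1 it was -0.091 (limma adjusted p = 0.952).

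**Figure D2:**
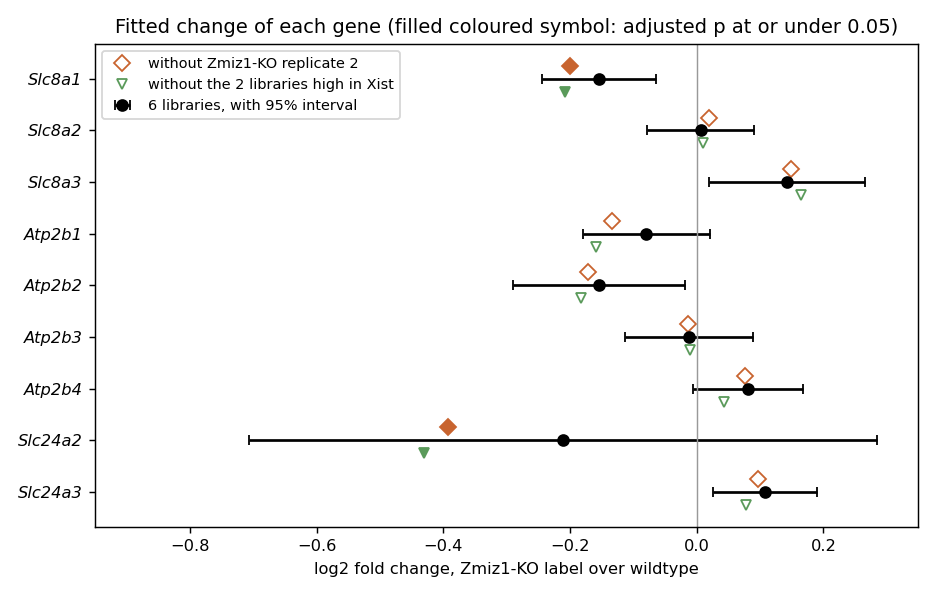
Fitted log2 fold change of each gene, Zmiz1-KO label over wildtype, with its 95% interval in the fit of 6 libraries (black), without Zmiz1-KO replicate 2 (orange) and without the 2 libraries high in Xist (green). Filled coloured symbols passed an adjusted p of 0.05, which they did for Slc8a1 and Slc24a2, at -0.20 and -0.39 without Zmiz1-KO replicate 2.

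Zmiz1-KO replicate 2 is also the library of its group that was high in Xist, and it was the highest of the 3 for Slc8a1, Atp2b1, Slc24a2 and Slc24a3. Among the 4 libraries low in Xist, the mean of Slc24a2 was 2117 normalized counts under the Zmiz1-KO label and 2855 in wildtype, a difference of -25.8%. Between the 2 libraries high in Xist the difference was 17.4% in the opposite direction, with 3090 and 2633 normalized counts. Atp2b1 had the same pattern at a smaller size, with -10.4% among the libraries low in Xist and 5.62% between those high in it. For Slc8a1 the differences were -13.4% and -3.30%, with the same sign.

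Without the 2 libraries high in Xist, which left 2 against 2, Slc8a1 changed by -0.21 on the log2 scale (limma adjusted p = 0.0375) and Slc24a2 by -0.43 (limma adjusted p = 0.00306), and the other 7 members stayed above the threshold. In that fit 143 of 15860 genes passed, against 65 of 15800 in the fit of 6 libraries. The difference between the effects was tested by an interaction term, chosen after the values were seen, in which 0.152% of all genes passed an adjusted p of 0.05. Of the members only Slc24a2 did, with a difference of 0.66 on the log2 scale (standard error 0.10, limma adjusted p = 0.0123), while Atp2b1 had 0.24 (limma adjusted p = 0.384) and Slc8a1 0.16 (limma adjusted p = 0.604). This term rests on 1 library per group with high Xist, which is assumed to vary like the rest, so high Xist and other properties of Zmiz1-KO replicate 2 and wildtype replicate 3 cannot be told apart. With the level of Xist as a covariate, no member passed.

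The levels of different genes were compared as normalized counts per kilobase of merged exons. Slc8a2 was highest at 1982, averaged over the 6 libraries, and stood 692nd of 15584 tested genes with a known length. Slc24a3 (1272), Atp2b1 (1240) and Atp2b2 (1103) followed, and the libraries of each neighbour in this order overlapped. Atp2b4 (710), Atp2b3 (619), Slc8a1 (542), Slc8a3 (312) and Slc24a2 (214) came next without overlap between neighbours. The order depends on the gene model, as the merged exons of Atp2b1 have 15218 bases while its longest transcript has 7130 bases. On the longest transcript Atp2b1 was the highest of the 9 genes at 2648. There Atp2b2 (1568) stood above Slc24a3 (1434), with overlapping libraries.

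As sums of normalized counts, the NCX genes reached 22717 ± 373 in wildtype and 21841 ± 362 under the Zmiz1-KO label, without overlap, while the sums of the PMCA genes (45512 ± 1979 and 43434 ± 1903) and of the NCKX genes (8368 ± 264 and 8461 ± 656) overlapped. The composition of each family was then compared, which does not depend on how a library is scaled. On the per-kilobase level, Slc8a2 made up 69.5% ± 1.25 of the NCX family in wildtype and 70.3% ± 1.32 under the Zmiz1-KO label (SD, n = 3 per group). Slc8a1 held 20.1% ± 0.317 and 18.2% ± 1.15, and its 3 shares in the libraries labelled Zmiz1-KO, of 17.1 to 19.4%, lay below those in wildtype, of 19.7 to 20.4%. The share of Slc8a3 was 10.4% ± 0.947 in wildtype and 11.6% ± 0.414 in the other group, and the groups did not overlap only by a margin too small to show at 3 digits. The differences in the shares of Slc8a1 and Slc8a3 each had the smallest p that 3 libraries against 3 allow, 0.1 (two-sided exact permutation test), and 0.233 after Benjamini-Hochberg adjustment over the 7 shares of both families.

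Among the pumps, Atp2b4 held 18.4% ± 0.421 of the family level in wildtype and 20.3% ± 0.488 under the Zmiz1-KO label, where its lowest share of 19.7% lay above the highest of wildtype, 18.8% (exact permutation p = 0.1, adjusted p = 0.233). Atp2b2 had 31.0% ± 1.87 and 29.0% ± 0.628, with overlapping groups (exact permutation p = 0.2). The shares of Atp2b1, 34.0% ± 0.408 and 33.5% ± 1.22, and of Atp2b3, 16.6% ± 1.39 and 17.2% ± 0.831, overlapped as well. Dividing by the longest transcript instead of the merged exons, Atp2b1 held 47.4% ± 0.620 in wildtype and 47.1% ± 1.32 under the Zmiz1-KO label, and Atp2b4 12.6% ± 0.292 and 14.0% ± 0.445, so the levels of these shares depend on the gene model while the signs of the differences did not.

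**Figure D3:**
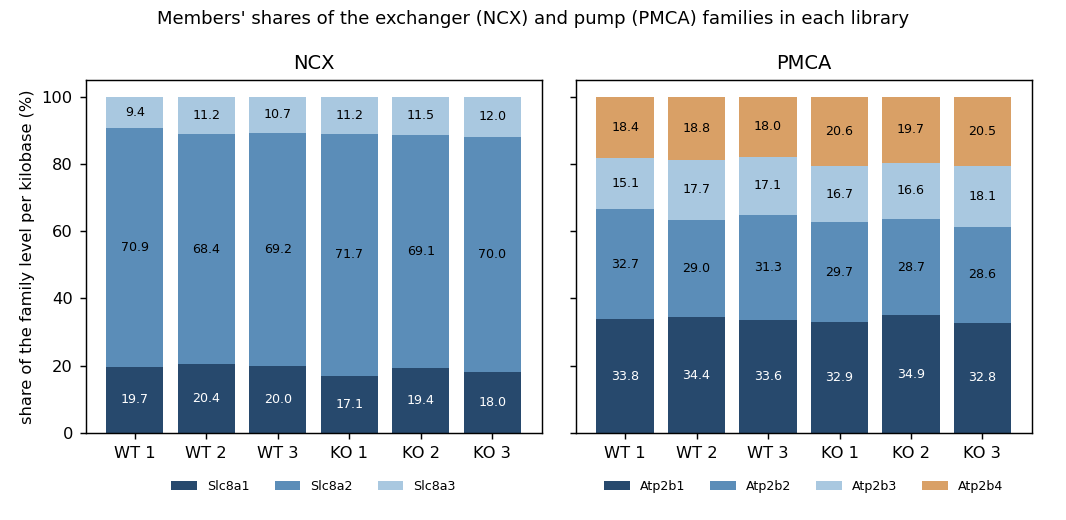
Share of the summed per-kilobase level of the exchanger family (left) and the pump family (right) held by each gene in each library, in percent, with WT for wildtype and KO for the Zmiz1-KO label. Slc8a2 holds 68.4 to 71.7% of the exchanger family, and Atp2b4 holds at most 18.8% of the pump family in wildtype and at least 19.7% under the Zmiz1-KO label.

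The genes with the profile nearest to that of Slc8a1 over the 6 libraries were Timm44 (Pearson r = 0.996), a component of mitochondrial protein import, Prkd2 (r = 0.989), a protein kinase D, and Phf20l1 (r = 0.989), a PHD finger protein. They are 3 of the 95 genes among 15799 with r of at least 0.95, and with only 6 points these values are a description. In all 3, as in Slc8a1, the wildtype libraries were highest and Zmiz1-KO replicate 2 was the highest of its group. None of them passed the threshold (limma adjusted p = 0.213, 0.658 and 0.242).

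Other genes of calcium handling were examined as 6 lists with 47 genes, of which 45 passed the filter. These were chosen with earlier results of these data known and do not cover all of calcium handling, and counts refer to these lists alone. None of the 45 had an adjusted p at or under 0.05 by limma or by limma-voom, against 0.411% of all genes, while 9 of 45 had an unadjusted p under 0.05, against 11.0% of all genes. In 12 of the 45 the groups did not overlap, against 16.3% of all genes, and 20 were lower and 25 higher under the Zmiz1-KO label.

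Of the pump partners, neuroplastin (Nptn) and basigin (Bsg), which are subunits of the pump complex, had log2 fold changes of 0.011 (limma adjusted p = 0.949) and 0.039 (limma adjusted p = 0.756), and their groups overlapped. Of the NCKX genes outside the members, Slc24a5 had the smallest p, at -0.13 on the log2 scale (limma adjusted p = 0.456), but 39.5% of its exon bases also belong to Myef2 on the opposite strand.

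The list for the ER store also holds channels of the plasma membrane that refill the store and a pump of the Golgi. Among its 15 genes tested, 7 were lower and 8 higher and none passed. Ryr2, a calcium release channel, had the smallest p, with 4261, 4266 and 4130 normalized counts in wildtype against 3640, 4053 and 3568 under the Zmiz1-KO label, which is -0.17 on the log2 scale (limma adjusted p = 0.185). Like Slc8a1 and Slc24a2, it passed without Zmiz1-KO replicate 2 and without the 2 libraries high in Xist. None of the 7 mitochondrial genes passed, and the smallest p was that of Smdt1, a uniporter regulator (0.12, limma adjusted p = 0.365). However, 16.6% of the exon bases of Smdt1 also belong to Pheta2 on the same strand. Of the 8 voltage-gated channel genes, 5 were lower and 3 higher, and Cacna1g, a T-type channel, had the smallest p (-0.11, limma adjusted p = 0.275). Of the 8 calcium-binding protein genes tested, 7 were higher, none passed, and Hpcal1 had the smallest p (0.23, limma adjusted p = 0.319) and passed without wildtype replicate 2.

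**Figure D4:**
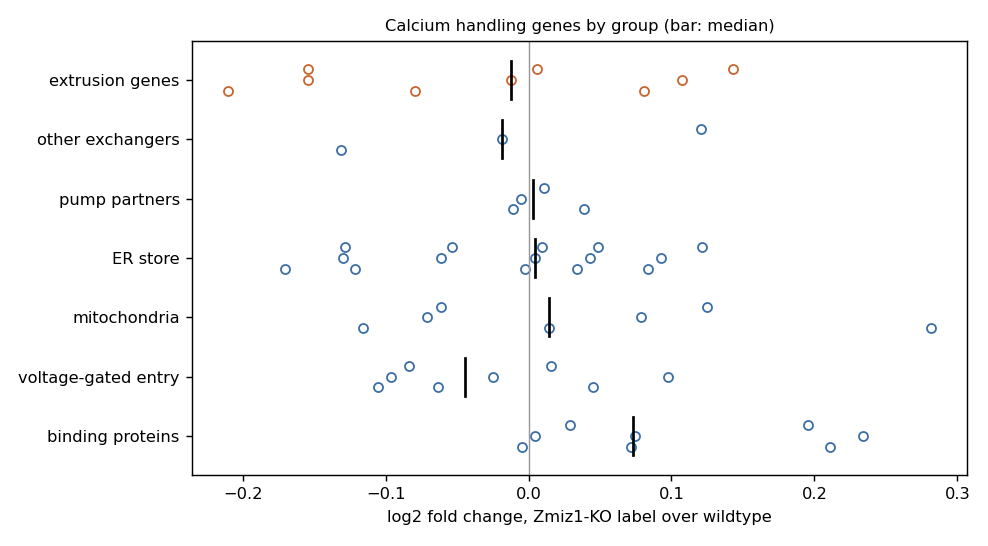
Log2 fold change, Zmiz1-KO label over wildtype, of the 9 extrusion genes (orange) and of 45 other calcium handling genes by list (blue), with 1 circle per gene and a black bar at the median of each list. The extrusion genes spread on both sides of 0, with 5 below and 4 above. Each other list also has genes on both sides, but among the binding proteins only 1 of 8 lies below 0.

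Of 72 markers of cell types tested, 3 (4.17%) passed the threshold, against 0.411% of all genes. In 25 of them (34.7%) the groups did not overlap, against 16.3% of all genes. The marker lists were chosen with earlier results of these data known, so these shares are a description and not an independent comparison. In bulk tissue fewer cells of a type and less RNA per cell cannot be told apart. All 9 interneuron markers had higher fitted values under the Zmiz1-KO label, and their summed level was 23727 to 25512 normalized counts there and 18247 to 22659 in wildtype. The 7 striatal markers were all higher, with sums of 18979 to 21341 and 13936 to 17789, and Pde10a passed (log2 fold change 0.37, limma adjusted p = 0.00303). The 5 meningeal markers were also all higher, at 10178 to 10788 and 7814 to 9011, and Col1a2 passed (0.32, limma adjusted p = 0.00464). Markers of the oligodendrocyte lineage, at 11401 to 11863 and 12269 to 13919, and of microglia, at 2896 to 2937 and 2951 to 3177, were lower as sums, with 6 of 7 and 3 of 5 markers at lower fitted values and none past the threshold. Astrocyte sums (36597 to 38299 and 38200 to 40571, with 4 of 6 markers lower) and thalamic sums (1260 to 1376 and 1292 to 1464) overlapped. Of the astrocyte markers Aqp4, a water channel, passed, with 5375 ± 233 normalized counts in wildtype and 4382 ± 138 under the Zmiz1-KO label (SD, n = 3 per group; limma adjusted p = 0.00499). The choroid plexus sum ran from 290 to 8379 within wildtype and from 353 to 4843 under the Zmiz1-KO label. The red blood cell gene Hbb-bs was at 0 in 4 of the 6 libraries, and no other marker was at 0 in any. The part of these cells in the values of the 9 extrusion genes was not tested.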

How the data were processed

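RNA was sequenced from P7 cortex of 3 wildtype and 3 Zmiz1-KO libraries. The authors aligned reads to mm10 with STAR in Illumina BaseSpace and normalized the counts with DESeq2, and they deposited 1 normalized signal value per gene and library, called normalized count in the text; versions and annotation are not given in the sources used here. With a tolerance of 0.05 steps, 62.7 to 79.0% of low but only 9.52 to 10.0% of high values lay near a whole multiple of a library's step, so whole reads were not recovered and no count model was fitted. Values were analysed as log2(value + 1) with limma (version 3.58.1, R version 4.3.3, intensity trend, robust estimation, no covariate), over the 15800 genes with at least 10 in at least 3 libraries, with Benjamini-Hochberg adjustment and a threshold of 0.05. Fold changes are on that scale. The fit was tested on simulated data with the same dispersion for every gene, so that test does not cover a spread such as that of Slc24a2. Family shares were compared by exact permutation tests (Python version 3.11.15). Gene models are from GENCODE vM21.

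The text names all 9 members, Zmiz1, Xist, per calcium list the genes that passed or else the gene with the smallest p, markers that passed or were at 0, and the 3 genes most like Slc8a1. Nptn was chosen with its value in view, and some genes of calcium handling are not reported here. The members and lists were chosen with earlier results of these data known. The alternatives were other scalings, pseudocounts, filters, limma-voom, non-robust estimation, Xist as a covariate, omission of libraries and the replicate number as a block.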

Additional observations from a re-analysis of the deposited data

Results flagged for a closer look

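In 2 genes, both Zmiz1-KO libraries low in Xist lay on the same side of both wildtype libraries low in it, and the libraries high in Xist differed in the opposite direction. The means of Slc8a2 also had opposite signs, but its libraries low in Xist overlapped. How many of all tested genes had the pattern of these 2 genes was not counted, so no background share can be given. Slc24a2 was higher by 17.4% in the Zmiz1-KO library high in Xist than in its wildtype counterpart, and in the libraries low in Xist both Zmiz1-KO values lay below both wildtype values. The difference between the effects had a limma adjusted p of 0.0123. Atp2b1 was higher by 5.62% between the libraries high in Xist and lower in both Zmiz1-KO libraries low in it, and the difference between the effects had a limma adjusted p of 0.384. Sex is not in the labels, and each label has 1 library high in Xist; the Y-linked gene Ddx3y was at 0 and 1.89 normalized counts in these 2 libraries and at 1250 to 1483 in the other 4.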

How the results depend on the processing

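Of 153 refits of the members' log2 fold changes, 143 kept their direction and their side of the threshold, 5 passed it newly and 5 changed sign. The sign changes were those of Slc8a2, which ran from -0.016 to 0.038 with each library left out, and of Atp2b3, from -0.053 to 0.025. No member passed at an adjusted p of 0.1. The number of members that passed was 2 without the libraries high in Xist, 1 with a block for the replicate number, and 0 to 2 with each library left out. Over all genes the count of 65 became 106 at an adjusted p of 0.1, 17 without robust estimation, 143 without the libraries high in Xist and 168 with the block, and it ran from 13 to 151 with each library left out. Of the other calcium genes listed, 1 passed without the libraries high in Xist and 0 to 1 with each library left out, where 0 had passed. The share of the pump family held by Atp2b3 differed by 0.536 percentage points between the groups, and by -0.243 to 1.08 with each library left out; no other share changed sign. For the other shares these ranges were -2.50 to -1.36 points for Slc8a1, 0.035 (without Zmiz1-KO replicate 1) to 1.44 for Slc8a2, 0.607 (without wildtype replicate 1) to 1.52 for Slc8a3, -1.13 (without Zmiz1-KO replicate 2) to -0.053 for Atp2b1, -2.98 to -1.13 (without wildtype replicate 1) for Atp2b2 and 1.69 to 2.17 for Atp2b4. Same-numbered libraries deviated from their group means with correlations of -0.0051, -0.11 and -0.0063 across genes, so the numbers were not taken as pairs. The block changed no call of a member but that of Slc8a1 (-0.15, limma adjusted p = 0.0492). The causes were not tested. At 3 libraries per group, no exact test of a share can give a p below 0.1.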
